A study of Mus musculus with 8 samples.

Results

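The genes described here are 10 that mark the inhibitory interneurons of the cerebellar cortex, the basket and stellate cells of the molecular layer and the Golgi cells of the granular layer. They are Tfap2a, Tfap2b, Kit, Pvalb, Sorcs3, Nxph1, Lypd6, Pax2, Npas3 and Lgi2. Members were found by taking the probe sets annotated with 1 of these symbols alone, and their log2 values were averaged per gene. All 10 were measured, among 20352 genes in all, through 118 of 241576 probe sets. The AP-2 genes Tfap2a and Tfap2b stand in the array's annotation under their older symbols Tcfap2a and Tcfap2b.

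The series holds 8 Affymetrix Mouse Gene 1.0 ST arrays of RNA from whole cerebellum at 28 days, 1 array per animal. There were 4 Cic-L-null mice, which carry a mutation of the transcriptional repressor Capicua (Cic), and 4 wild-type mice, all on a mixed Swiss Webster (CD-1) background. How the allele was made is not given in the sources used here, and the labels name no other allele or agent. Cic itself was 7.50, 7.48, 7.62 and 7.54 log2 units in the Cic-L-null arrays, against 8.74, 8.57, 8.63 and 9.19 in the wild-type arrays, which is -1.25 in Cic-L-null minus wild-type (SE 0.12, limma's adjusted p = 0.00818). Without Cic-L-null replicate 2 that p was 0.0589. Gene values correlated between 0.9913 and 0.9954 across pairs of arrays. Array medians ran from 7.82 to 7.88 log2 units, and arrays give no read depth, so the number of animals limits the precision. Cic-L-null replicate 3 and wild-type replicates 2 and 3 lacked Y-linked signal, with a mean over 3 Y-linked genes between 4.53 and 4.58, against 9.11 to 9.29 in the other 5 arrays. The extraction label of wild-type replicate 1 differs from those of the other 7.

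Molecular layer interneurons and Golgi cells use GABA, and Golgi cells often glycine too. They arise in the ventricular zone of the cerebellum from progenitors that express Ptf1a, pass through a stage that is marked by Pax2, and settle in the cortex after birth. Basket and stellate cells inhibit Purkinje cells, and Golgi cells inhibit granule cells. Capicua is known to bind a short DNA element and to repress genes downstream of receptor tyrosine kinases, and Kit, a receptor tyrosine kinase of molecular layer interneurons, is one such receptor. The RNA came from whole tissue, in which fewer cells of a type and less RNA per cell cannot be told apart.

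The start regions of the paired AP-2 genes are shown because Tfap2a was the member whose genotypes were separate, while Tfap2b was the member with a Capicua element near its start. Windows from 250 bases before to 50 after each start (RefSeq, GRCm38.p6) were searched on both strands for the known Capicua octamers TGAATGAA and TGAATGGA, which do not overlap each other in any window printed here. All 10 members had a window, 15 in all, and 1 of the 15 held an octamer, against 2.47% of 32851 windows over all genes. It was TGAATGAA on the coding strand of Tfap2b, beginning 116 bases before the start at chr1:19211804-19212103 (+ strand), and it is in capitals here. Both windows of Tfap2a, at chr13:40733746-40734045 and chr13:40734871-40735170 (- strand), held none of these letters. A match is a description of the letters and not a binding site, and no binding was measured.
Tfap2b: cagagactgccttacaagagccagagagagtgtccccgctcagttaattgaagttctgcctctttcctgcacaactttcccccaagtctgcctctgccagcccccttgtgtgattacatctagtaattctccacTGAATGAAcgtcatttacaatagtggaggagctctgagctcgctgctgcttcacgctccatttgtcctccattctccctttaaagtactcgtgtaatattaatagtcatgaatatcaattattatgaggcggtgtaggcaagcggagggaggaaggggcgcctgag
Tfap2a, first window: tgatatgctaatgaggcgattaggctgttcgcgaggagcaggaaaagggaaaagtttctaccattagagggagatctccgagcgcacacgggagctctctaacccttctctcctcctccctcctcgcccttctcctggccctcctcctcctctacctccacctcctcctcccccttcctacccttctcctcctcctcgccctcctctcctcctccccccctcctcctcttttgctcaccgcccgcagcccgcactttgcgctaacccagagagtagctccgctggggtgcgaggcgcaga
Tfap2a, second window: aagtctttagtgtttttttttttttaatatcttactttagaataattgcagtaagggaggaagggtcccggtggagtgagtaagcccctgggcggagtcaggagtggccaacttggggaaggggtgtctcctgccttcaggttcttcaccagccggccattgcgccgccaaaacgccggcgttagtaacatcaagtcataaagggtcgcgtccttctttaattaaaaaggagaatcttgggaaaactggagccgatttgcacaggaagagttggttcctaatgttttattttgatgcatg

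The members differed little in measured level between the genotypes. Tfap2a had the largest difference of the 10 and was not called. With limma over all genes 0 of 10 were called at an adjusted p under 0.05, where 0.138% of all genes were called. At an unadjusted p under 0.05 there was 1 of 10, Tfap2a, a share of 10% that is near the 9.26% of all genes. The same single member had groups that did not overlap, against 5.94% of all genes in either direction and 3.02% with Cic-L-null above. A difference above 0 was seen for 7 of the 10, against 47% of all genes, and the median difference was 0.036, against -0.0071 over all genes. The median size of a difference regardless of sign was 0.053, against 0.064 over all genes. All 10 members lay above 6.21, a limit for dim genes set at the 95th percentile of 985 olfactory receptor genes.

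**Figure D1:**
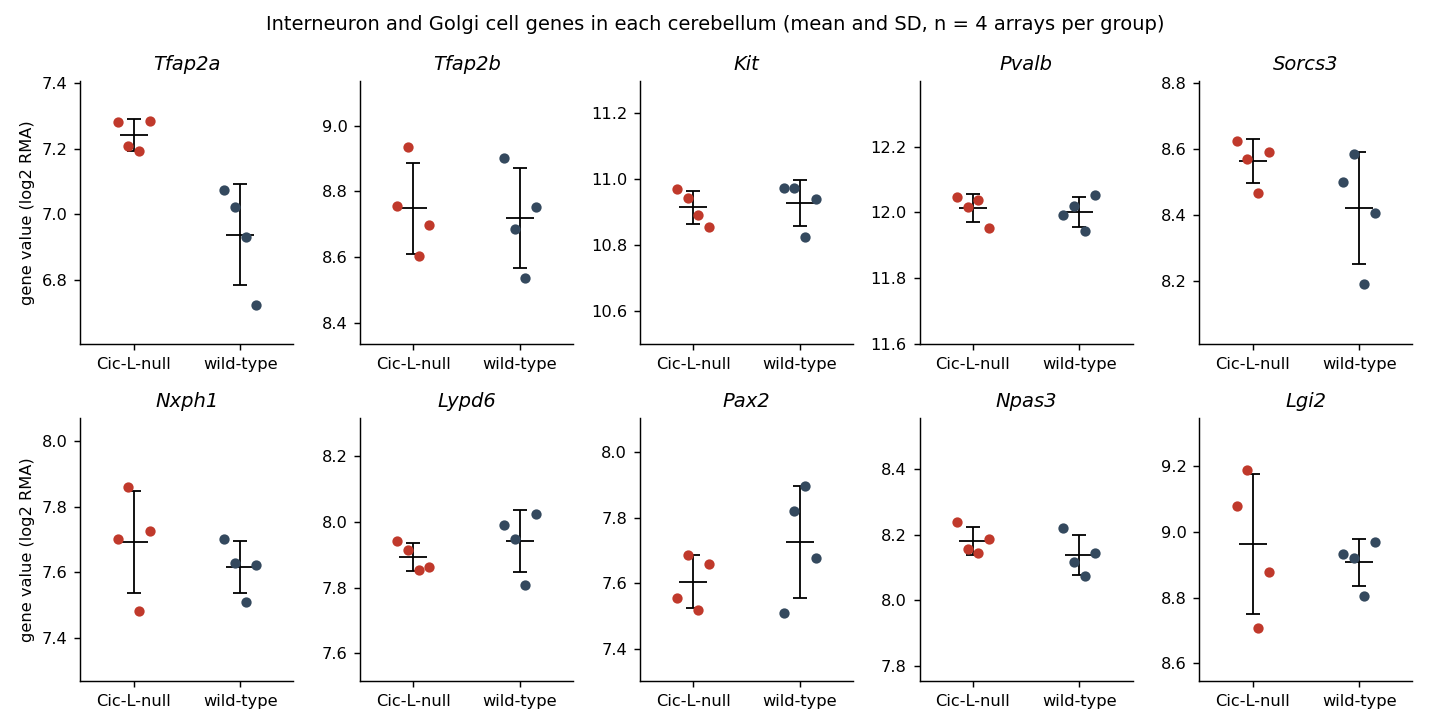
Gene values (log2 RMA) of the 10 interneuron and Golgi cell genes, 1 panel per gene, with Cic-L-null arrays on the left and wild-type arrays on the right. Points are arrays, bars the mean and SD (n = 4), and every vertical axis spans the same number of log2 units. In Tfap2a the lowest Cic-L-null array, at 7.19, lies above the highest wild-type array, at 7.07, while the groups overlap in the other 9 genes.

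Of the transcription factors, Tfap2a differed most. This AP-2 factor of the GABAergic lineage had 7.28, 7.21, 7.19 and 7.28 log2 units in Cic-L-null cerebella, against 7.07, 7.02, 6.93 and 6.73 in wild-type cerebella. Every Cic-L-null array was higher than every wild-type array, with a gap of 0.12, and wild-type replicate 4 was the lowest of all. The means were 7.24 ± 0.048 in Cic-L-null and 6.94 ± 0.15 in wild-type (SD, n = 4 each), a difference of 0.30 (SE 0.078) or 1.23-fold. The adjusted p was 0.213, so Tfap2a did not pass over all genes, and 2.51% of genes had a larger difference in size. Without wild-type replicate 4 the difference was 0.23.

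The Tfap2a difference was spread over its probe sets. Of 11 probe sets, 10 were higher in Cic-L-null and 1 lower, with a median of 0.29. Probe set 10408799 had 8.71, 9.01, 8.76 and 8.80 in Cic-L-null arrays, against 8.66, 8.71, 8.46 and 8.57 in wild-type arrays, a difference of 0.22 (SE 0.10). Probe set 10408800 had 8.73, 8.72, 8.56 and 8.88 in Cic-L-null arrays, against 8.54, 8.36, 8.07 and 8.49 in wild-type arrays, a difference of 0.36 (SE 0.13). In both the genotypes were apart, though in 10408799 the lowest Cic-L-null array, at 8.713, barely exceeded the highest wild-type array, at 8.709. They were also apart in probe set 10408807, which had the highest difference, 0.68 (SE 0.30), and lay below the dim limit. The groups were thus apart in 3 of the 11 probe sets, against 4.3% of all probe sets, and overlapped in the rest. The lowest difference was -0.13 (SE 0.15) in probe set 10408808, also dim. Among the 7 probe sets above the dim limit alone, the gene's difference was 0.31 (adjusted p = 0.279).

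**Figure D2:**
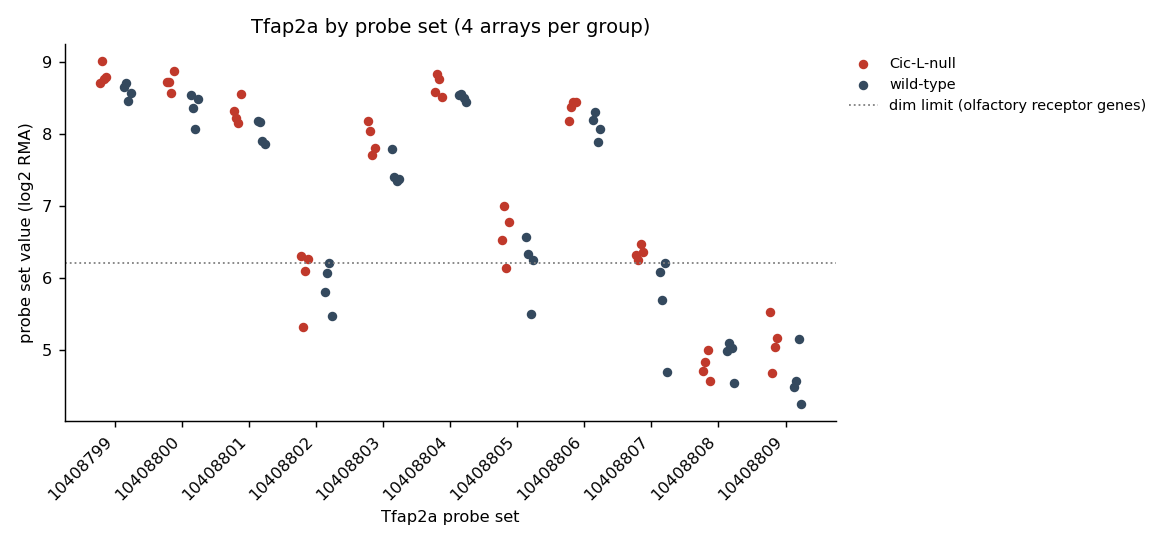
Log2 RMA values of the 11 Tfap2a probe sets, 4 Cic-L-null arrays to the left and 4 wild-type arrays to the right at each probe set, with the dim limit of 6.21 as a dotted line. The Cic-L-null mean was higher at 10 probe sets, and probe set 10408808 ran the other way.

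Tfap2b, the AP-2 paralogue that marks cerebellar inhibitory interneurons, had overlapping groups. It had 8.75, 8.93, 8.60 and 8.70 in Cic-L-null arrays, against 8.90, 8.69, 8.54 and 8.75 in wild-type arrays, a difference of 0.029 (SE 0.092, 95% interval -0.175 to 0.233). The groups overlapped over most of their ranges, and 5 of 8 probe sets were higher and 3 lower. Whether the difference of Tfap2a was larger than that of Tfap2b was not tested.

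Pax2, a paired-box factor of immature inhibitory interneurons, had 7.56, 7.69, 7.52 and 7.66 in Cic-L-null arrays, against 7.51, 7.82, 7.90 and 7.68 in wild-type arrays. Wild-type replicate 1 was the lowest array of all and wild-type replicate 3 the highest, so the groups overlapped. The difference was -0.12 (SE 0.087, adjusted p = 0.751). It was -0.19 without wild-type replicate 1 and -0.064 without wild-type replicate 3. It was uneven over the 11 probe sets, from -0.61 (SE 0.26) in probe set 10463395, which lay below the dim limit, to 0.13 (SE 0.11), with 7 lower and 4 higher. Without dim probe sets the Pax2 difference was -0.072, and with the median of its probe sets -0.019. Probe set 10463390 had 6.11, 6.71, 6.34 and 6.72 in Cic-L-null arrays, against 7.09, 6.78, 7.08 and 7.03 in wild-type arrays, the only member probe set with Cic-L-null wholly below wild-type.

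Npas3, a basic helix-loop-helix PAS factor of the brain, had 8.24, 8.16, 8.14 and 8.19 in Cic-L-null arrays, against 8.22, 8.12, 8.07 and 8.14 in wild-type arrays. The difference was 0.042 (SE 0.057, adjusted p = 0.888). It was 0.21 with the median of its probe sets, 0.023 without Cic-L-null replicate 1, 0.021 without wild-type replicate 3 and 0.069 without wild-type replicate 1. Its 13 probe sets had differences from -0.22 to 0.40, with 6 higher and 7 lower. The highest, probe set 10395732, was apart between the genotypes, with 6.96, 7.20, 7.02 and 6.95 in Cic-L-null arrays, against 6.45, 6.87, 6.82 and 6.39 in wild-type arrays.

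Among the receptors, Kit had a narrow spread and overlapping groups. It had 10.97, 10.94, 10.89 and 10.86 in Cic-L-null arrays, against 10.97, 10.97, 10.82 and 10.94 in wild-type arrays. The difference was -0.013 (SE 0.059), and its 95% interval on the fold scale ran from 0.905 to 1.09. Of 23 Kit probe sets, 7 were higher and 16 lower, all between -0.14 and 0.13 and all with overlapping groups. Kitl, the Kit ligand made by Purkinje cells, is among the partner genes below.

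Sorcs3, a sorting receptor of the Vps10 family, had 8.62, 8.57, 8.47 and 8.59 in Cic-L-null arrays, against 8.50, 8.58, 8.19 and 8.40 in wild-type arrays. The groups overlapped through wild-type replicates 1 and 2, and wild-type replicate 3 was the lowest array. The difference was 0.14 (SE 0.085, adjusted p = 0.679), the second in size after Tfap2a. Of 28 probe sets 20 were higher and 8 lower, from -0.27 to 0.68, with a median of 0.19. In probe set 10463903 the genotypes were apart, with 8.62, 8.88, 8.97 and 8.59 in Cic-L-null arrays, against 8.35, 8.44, 7.80 and 8.14 in wild-type arrays. Without wild-type replicate 3 the Sorcs3 difference was 0.067.

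Lypd6, a membrane-anchored protein of the Ly6 family that acts on nicotinic acetylcholine receptors, had 7.94, 7.91, 7.85 and 7.86 in Cic-L-null arrays, against 7.99, 7.95, 7.81 and 8.02 in wild-type arrays. All 4 Cic-L-null arrays lay within the wild-type range. The difference was -0.050 (SE 0.063, adjusted p = 0.88), with 2 of 5 probe sets higher and 3 lower.

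The secreted synaptic ligands overlapped between the genotypes as well. Nxph1, a ligand of alpha-neurexins, had 7.70, 7.86, 7.48 and 7.73 in Cic-L-null arrays, against 7.70, 7.63, 7.51 and 7.62 in wild-type arrays, a difference of 0.077 (SE 0.082, adjusted p = 0.857). Leaving out Cic-L-null replicate 2 gave 0.021, leaving out Cic-L-null replicate 3 gave 0.15, and leaving out wild-type replicate 3 gave 0.041. Its 4 probe sets were all higher, by 0.038 to 0.13. Lgi2, a secreted ligand of ADAM22 family receptors, had 9.08, 9.19, 8.71 and 8.88 in Cic-L-null arrays, against 8.93, 8.92, 8.81 and 8.97 in wild-type arrays. Cic-L-null replicate 3 was the lowest Lgi2 array and Cic-L-null replicate 2 the highest, so the Cic-L-null range of 0.48 was wider than the wild-type range of 0.17. Probe set 10530038, which enters this mean, had 8.84, 9.32, 5.70 and 6.70 in Cic-L-null arrays, against 8.56, 8.20, 7.99 and 8.22 in wild-type arrays. That probe set differed by -0.60 (SE 0.74), and part of the wider Lgi2 range came from it. The Lgi2 difference was 0.056 (SE 0.098, adjusted p = 0.916), with 9 of 11 probe sets higher. With the median of its probe sets it was 0.12.

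Pvalb, the calcium buffer of basket and stellate cells that Purkinje cells also make in quantity, was the steadiest member. It had 12.05, 12.02, 12.04 and 11.95 in Cic-L-null arrays, against 11.99, 12.02, 11.94 and 12.05 in wild-type arrays, a range of 0.11 over all 8 arrays. The difference was 0.012 (SE 0.054), with a 95% interval of 0.927 to 1.10 on the fold scale. Its 4 probe sets differed by -0.0068 to 0.047. The 11 measured Purkinje cell markers had a median difference of 0.029, with 0 called and 0 at an unadjusted p under 0.05.

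**Figure D3:**
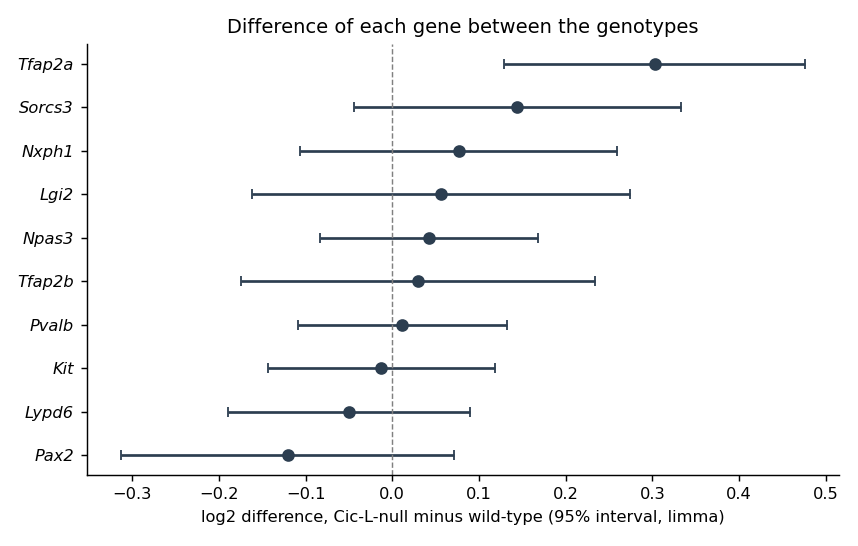
Log2 difference of each gene, Cic-L-null minus wild-type, with its 95% interval from limma, sorted by size. The interval of Tfap2a runs from 0.129 to 0.476, and those of the other 9 genes include 0.

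For the 9 members other than Tfap2a, the differences ran from -0.12 to 0.14. Their 95% intervals, which are not adjusted for the number of genes, reached from -0.31 to 0.33 at the widest, or from 0.805-fold to 1.26-fold. The intervals differed in width between genes, from -0.11 to 0.13 in Pvalb to -0.16 to 0.27 in Lgi2. Over single probe sets 0 of 118 were called with limma over all probe sets, where 0.000414% were called in all. At an unadjusted p under 0.05 there were 8 of the 118, against 6.8% of all probe sets. The genotypes were apart in 6, 5 with Cic-L-null above and 1 below, against 4.3% of all probe sets in either direction and 2.39% with Cic-L-null above. A difference above 0 was seen in 69 of the 118, against 51.6% of all probe sets, and probe sets of 1 gene share its transcripts.

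Much of the spread of these genes lay within the genotypes and followed single arrays. Cic-L-null replicate 3 was the lowest Cic-L-null array for 8 of the 10 members, and wild-type replicate 3 was the lowest wild-type array for 8 of the 10. Over all genes the shares were 23.7% and 30.5%. In Tfap2b, Sorcs3, Nxph1, Lypd6, Npas3 and Lgi2, or 60% of the members, both arrays numbered 3 were the lowest of their group, against 9.41% of all genes. Averaged over the 10 members, with each centred over the 8 arrays, Cic-L-null replicates 1 to 4 stood at 0.062, 0.090, -0.068 and 0.012, against 0.022, 0.014, -0.11 and -0.026 for wild-type replicates 1 to 4. Both arrays numbered 3 lacked Y-linked signal, as did wild-type replicate 2, whose mean was 0.014, and the part of these in the spread was not tested. With both arrays numbered 3 left out, an alternative chosen after seeing the data, Tfap2a differed by 0.32 (adjusted p = 0.364), the median difference of the members was 0.024, and 0 of 10 were called.

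The members did not all follow this pattern. Over the 45 pairs of members, the correlation of deviations from the group means over 8 arrays had a median of 0.42 and was above 0 in 33 pairs, from -0.77 between Npas3 and Pax2 to 0.87. These values describe arrays that share 1 normalisation. Pax2 ran against the rest in the wild-type group, where replicate 3 was its highest array. Tfap2a had its lowest wild-type value in replicate 4.

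**Figure D4:**
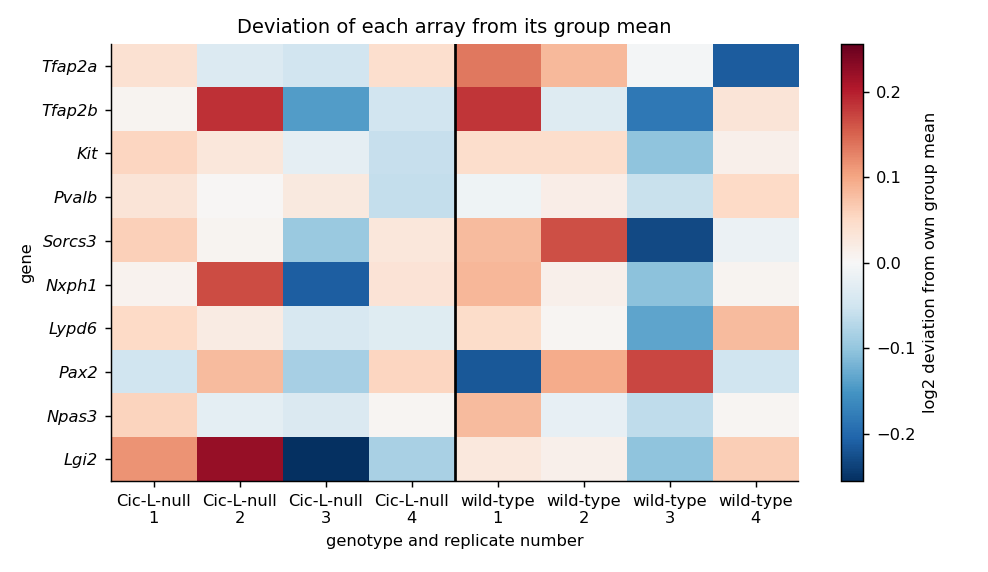
Deviation of each array from its own group's mean (log2 units, colour scale) for the 10 genes, with Cic-L-null replicates on the left and wild-type replicates on the right. Both columns numbered 3 are blue for most genes, while Pax2 in wild-type replicate 3 and Pvalb in Cic-L-null replicate 3 lie above their group means.

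Outside the members, the genes whose profile over the 8 arrays was most like the members' mean, by Pearson correlation, were Slc25a33 (0.972), Zfp438 (0.968), Gm9958 (0.96), Eif4b (0.955) and Lix1l (0.95). They were picked as the top of 20342 genes over 8 arrays, share the same normalisation, and differed between the genotypes by 0.054 to 0.12. Slc25a33, for example, had 8.42, 8.42, 8.14 and 8.36 in Cic-L-null arrays, against 8.33, 8.28, 8.06 and 8.20 in wild-type arrays, so that it too was lowest in both arrays numbered 3.

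Other genes of the same neurons were measured through 19 of 21 listed symbols, and 0 were called, with 3 at an unadjusted p under 0.05. Their median difference was 0.0096, with 11 above 0 and 8 below. Of all genes, 9.26% had an unadjusted p under 0.05 and 47% a difference above 0, shares that also stand beside the lists below. Kcnab2, a subunit of the potassium channels at basket cell terminals, had 9.76, 9.75, 9.85 and 9.74 in Cic-L-null arrays, against 9.99, 9.87, 9.94 and 9.95 in wild-type arrays. It was the single gene of the list with separate groups, a share of 5.26%, against 5.94% of all genes. Kcnab2 differed by -0.16 (SE 0.056, adjusted p = 0.378). Gjd2, the connexin of interneuron gap junctions, differed by 0.21 (SE 0.088, adjusted p = 0.483). Gad1, which encodes an enzyme that makes GABA, differed by 0.13 (SE 0.058, adjusted p = 0.538), and Grm2, a glutamate receptor of Golgi cells, by 0.10 (SE 0.067, adjusted p = 0.722). Gad2, which encodes another enzyme that makes GABA, ran the other way from Gad1, at -0.062 (SE 0.064, adjusted p = 0.852), with overlapping groups.

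The list of the cerebellar GABAergic lineage held the gene with the largest difference among the 4 lists of related genes. Of 15 measured from 16 listed, 0 were called, 3 had an unadjusted p under 0.05, and the median difference was -0.037. Kirrel2, an adhesion protein of GABAergic progenitors downstream of Ptf1a, had 7.26, 7.63, 7.25 and 7.49 in Cic-L-null arrays, against 6.84, 6.97, 6.99 and 6.84 in wild-type arrays. Every Cic-L-null array was above every wild-type array, and all 13 Kirrel2 probe sets were higher. The difference of 0.50 (SE 0.091) had an adjusted p of 0.0754. Over 20 alternatives the adjusted p ran from 0.0269, with a trended and robust variance, to 0.272, with unmoderated tests. It was 0.0435 when genes above the dim limit alone were tested, 0.233 when probe sets were summarised by their median, 0.123 with the replicate block, and between 0.0688 and 0.251 with 1 array left out. Kirrel2 lies on chromosome 7, as Cic does in GRCm38.p6. So do Kctd15, Slc17a7, Igf2 and Th, which are named below. The part of the segment around the altered gene was not tested for any of them. The LIM factors Lhx1 and Lhx5, which Purkinje cells also express, differed by 0.24 (SE 0.062, adjusted p = 0.213, groups apart) and 0.20 (SE 0.087, adjusted p = 0.523). Zfp423, a zinc finger gene of cerebellar progenitors, differed by -0.10 (SE 0.053, adjusted p = 0.608, groups apart). Of the 15 measured genes, 20% had separate groups, 2 with Cic-L-null above and 1 below, against 5.94% of all genes.

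The partners of the members, among them Kitl, neurexins, ADAM receptors and nicotinic receptor subunits, had a median difference of 0.060 over 22 of 23 listed genes, with 0 called and 2 at an unadjusted p under 0.05. A pair of receptors for Lgi proteins ran in opposite directions without passing. Adam22 had 10.36, 10.32, 10.35 and 10.43 in Cic-L-null arrays, against 10.31, 10.22, 10.15 and 10.19 in wild-type arrays, a difference of 0.15 (SE 0.058, adjusted p = 0.455). Adam23 had 10.71, 10.71, 10.79 and 10.67 in Cic-L-null arrays, against 10.97, 10.81, 10.86 and 10.81 in wild-type arrays, a difference of -0.14 (SE 0.060, adjusted p = 0.502). Cited2 and Kctd15, which act with or on AP-2 factors, differed by 0.12 (SE 0.061, adjusted p = 0.605) and -0.12 (SE 0.064, adjusted p = 0.646). Kitl had 9.06, 9.11, 9.26 and 9.13 in Cic-L-null arrays, against 9.47, 9.26, 9.12 and 9.27 in wild-type arrays, a difference of -0.14 (SE 0.08, adjusted p = 0.67). The groups overlapped through wild-type replicate 3 and Cic-L-null replicate 3.

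Among 24 paralogues of the members, 0 were called and 1 had an unadjusted p under 0.05, with a median of -0.00088. That gene was Npas2, a relative of Npas3 in the circadian clock, with 6.89, 6.79, 6.67 and 7.09 in Cic-L-null arrays, against 7.30, 7.18, 7.26 and 7.30 in wild-type arrays. Its difference was -0.40 (SE 0.086, adjusted p = 0.136), and 20 of 22 probe sets were lower. The labels give no hour of collection. The next in order of p were the receptor kinase genes Flt3 at -0.17 (SE 0.079, adjusted p = 0.553) and Pdgfra at -0.14 (SE 0.067, adjusted p = 0.59), and Nxph3 at 0.13 (SE 0.083, adjusted p = 0.703).

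Markers of other cells were read beside these values. Granule cell markers had a median of 0.060 with 0 of 12 called, Reln at 0.32 (SE 0.064, adjusted p = 0.0964) first by p and Slc17a7 at 0.13 (SE 0.059) next. Purkinje cell markers were led by Pcp4 at -0.084 (SE 0.069) and Pcp2 at 0.12 (SE 0.11). For Bergmann glia and astrocytes, 11 of 12 markers had a difference below 0 and 1 above, where 47% of all genes were above 0. The median was -0.13, and Fabp7 was called at -1.17 (SE 0.14, adjusted p = 0.018), with Gdf10 at -0.33 (SE 0.073, adjusted p = 0.147) next. The Fabp7 call was lost without Cic-L-null replicate 2 or 4 or wild-type replicate 2, with adjusted p of 0.0592, 0.0564 and 0.0682. Markers of the oligodendrocyte lineage had a median of -0.11 over 11 genes with 0 called, Mobp at -0.30 (SE 0.060) and Cldn11 at -0.21 (SE 0.057) first. Per-array means, centred over the arrays, were taken for each list. For Bergmann glia and astrocytes, with Fabp7 included, they ran from -0.13 to -0.077 in Cic-L-null and from 0.0058 to 0.15 in wild-type. For the oligodendrocyte lineage they overlapped, from -0.084 to 0.044 in Cic-L-null and from 0.0072 to 0.11 in wild-type. Those of the members overlapped too, from -0.068 to 0.090 in Cic-L-null and from -0.11 to 0.022 in wild-type.

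Tissues next to the cerebellum and Kit-bearing blood cells were read the same way. Of 8 mast cell markers, 6 lay below the dim limit and 0 were called, with Cpa3, one of the dim ones, at 0.26 (SE 0.087) and Hdc at 0.27 (SE 0.12). Meningeal and choroid plexus markers had a median of -0.17 over 12 genes with 0 called, and their centred mean was -0.28 in Cic-L-null replicate 3, against -0.090 to 0.14 in the other Cic-L-null arrays. Igf2 at -0.22 (SE 0.068) and Col1a1 at -0.24 (SE 0.079) led this list. Brainstem markers had a median of 0.028 over 8 of 10 genes, 5 of them dim and 0 called, with 4 above 0 and 4 below. By p the first were Th at 0.58 (SE 0.11) and Tph2, a dim gene, at 0.34 (SE 0.096), and the next was Hoxb3, named after its value was seen, at -0.31 (SE 0.091). The part of these tissues in the members' values was not tested.

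**Figure D5:**
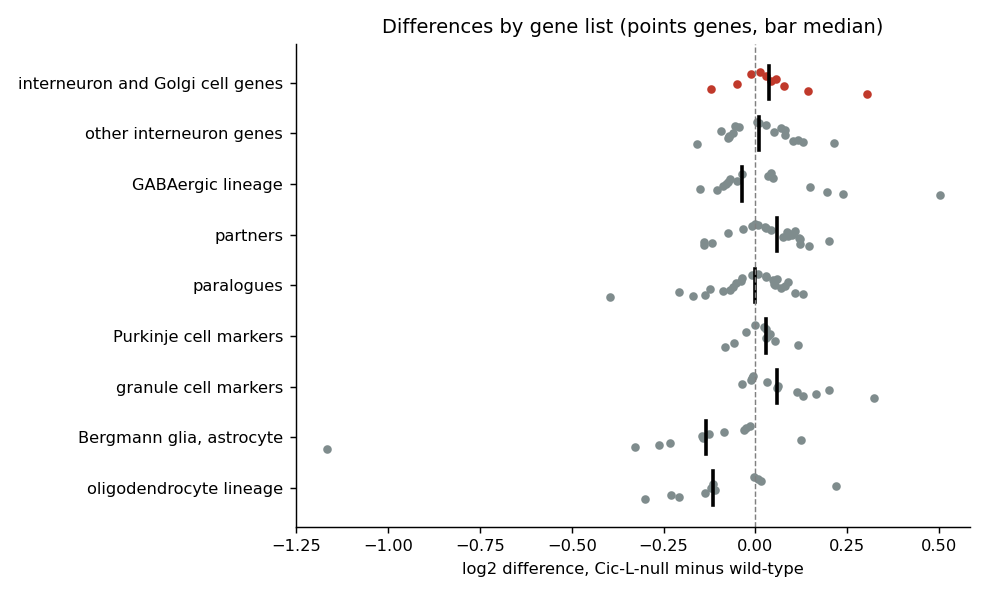
Log2 differences, Cic-L-null minus wild-type, of the genes of 9 lists, with 1 point per gene and a bar at each list's median. The 10 interneuron and Golgi cell genes (top row) have a median of 0.036, the GABAergic lineage list holds Kirrel2 at 0.50, and Bergmann glia and astrocyte markers hold Fabp7 at -1.17.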

How the data were processed

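RNA from 4 Cic-L-null and 4 wild-type cerebella was measured on 1 array each, grouped by the sample titles. The deposited values are log2 expression values per probe set that the authors made with RMA, per the submitters' processing notes, which also name Affymetrix Power Tools. The sources used here name neither a version nor a build. RMA includes quantile normalisation, so a change shared by most genes would not show. Symbols came from the platform annotation, with 2742 of 20416 updated through GRCm38.p6 synonyms. Of the probe sets, 212097 carried 1 symbol, 4475 several and 25004 none, and only the first entered genes (median 8 per gene). Gene values and single probe sets were compared with limma 3.58.1 in R 4.3.3, in both directions, with Benjamini-Hochberg adjustment over all genes or all probe sets and a call at an adjusted p under 0.05. The code was tested on simulated data. No gene was filtered out.

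The labels describe separate samples of each genotype and do not state litters. The p-values set each difference against the spread between these samples, which limma draws toward that of all genes or probe sets. Replicate numbers were not treated as pairs in the main fit, and whether they pair the samples is not known. Deviations from the group means were correlated over all genes, and for same-numbered arrays the correlation was under 0.1 in 2 of 4 pairs. For numbers 1 and 3 it was 0.219 and 0.207. The highest correlation of those Cic-L-null arrays with a wild-type array of another number was 0.057 and 0.125. For numbers 2 and 4 the same-number values were 0.00 and 0.026, and the highest with another number 0.11 and 0.121. Members and lists were chosen with earlier results of these data known. Named were all members, from each related list up to 4 genes and from each marker list up to 2 genes with the smallest p, and the 5 most like profiles. The highest or lowest probe sets were named for some members, and given as a range or not at all for others. Probe sets with separate groups, Kitl and Gad2 were named after their values were seen. Alternatives covered probe set summaries, dim genes, normalisation, variance, array weights, Y-linked signal, a replicate block and each array left out.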

Additional observations from a re-analysis of the deposited data

How the results depend on the processing

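None of the 10 members was called under any of 20 alternatives, and none of the member probe sets under any of 18, with limma throughout. The alternative limited to probe sets above the dim limit tested 110 of the 118 member probe sets, and the other probe set alternatives tested all 118. The smallest adjusted p of a member lay between 0.125 and 0.471 over the 20, while the number of genes called in all ran from 0 to 130. The median difference of the members had its lowest value, -0.0040, in the fit that drops Cic-L-null replicate 2 and its highest, 0.067, in the fit that drops wild-type replicate 1, against 0.036 with all arrays. Tfap2a kept its sign throughout, from 0.23 without wild-type replicate 4 to 0.46 when probe sets were summarised by their median. With the replicate block, Tfap2a differed by 0.30 (adjusted p = 0.265), 0 members and 0 probe sets were called, and 0 genes were called in all, against 28 without it. The deviations of arrays numbered alike had correlations of 0.219, 0.00, 0.207 and 0.026 for numbers 1 to 4.

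The sign turned in 5 members, each near 0, and the cause was not tested. Tfap2b was -0.059 and Lypd6 0.035 when probe sets were summarised by their median, and Tfap2b was -0.023 with a covariate of Y-linked genes. Left out one at a time, single arrays took Tfap2b from -0.033 to 0.090, Kit from -0.047 to 0.0071, Pvalb from -0.0076 to 0.032 and Lgi2 from -0.019 to 0.14. Without both arrays numbered 3, Pvalb was -0.016. Among other named genes, Kirrel2 ran from 0.43 to 0.58, and the calls of Cic and Fabp7 were lost under 4 and 7 of 20 alternatives. With 1 array left out, Sorcs3 ran from 0.067 to 0.20, Nxph1 from 0.021 to 0.15, Npas3 from 0.021 to 0.069, Pax2 from -0.19 to -0.064 and Lypd6 from -0.095 to -0.023. With a covariate of Y-linked genes Nxph1 was 0.032 and Npas3 0.024, and without both arrays numbered 3 Pax2 was -0.035. Leaving out Cic-L-null replicate 2 left 0 genes called in all. The number of arrays limits detection, and in a dim probe set signal over background limits it too.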
